A study of Mus musculus with 6 samples.

Results

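Calcium buffers are proteins that bind calcium reversibly, either free in the cytosol or inside the sarcoplasmic reticulum, the store that releases calcium to start a contraction and takes it back to end it. In fast skeletal muscle the cytosolic parvalbumin speeds relaxation, and calsequestrin holds calcium inside the reticulum close to the ryanodine receptor, the release channel. Other reticulum proteins bind calcium as chaperones during protein folding, which every secretory cell needs. The 8 genes described here were chosen by name: Pvalb (parvalbumin), Casq1 and Casq2 (the skeletal and the cardiac type of calsequestrin), Srl (sarcalumenin), Hrc (histidine-rich calcium-binding protein), Calr (calreticulin), Calu (calumenin) and Asph (whose transcripts encode aspartyl beta-hydroxylase, junctin and junctate). All 8 are among the 23367 gene entries of the table, and all 8 passed the filter on low counts that left 16882 entries for the test.

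Polyadenylated RNA of the gastrocnemius, a mostly fast calf muscle, was sequenced in 6 libraries from wild type mice of the FVB strain, at E18.5 (embryonic day 18.5), PN2, PN14 and PN28 (postnatal days 2, 14 and 28) and in the adult (22 weeks). PN14 had 2 libraries and every other stage had 1. The E18.5 and PN2 libraries were each pooled from several mice, the E18.5 pool held both sexes and all other libraries were male. Stage therefore cannot be told apart from pooling, and at E18.5 from sex.

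Between 125402932 and 157868359 fragments were counted on genes in a library, and the lowest count of any of the 8 genes was 2817 (Casq2 in the adult). Scaled to library totals alone, 7 of the 8 genes differed between the PN14 libraries by more than counting error. All genes were not counted in this way, so the 7 cannot be set against a background. The defining markers of muscle were present, with the summed FPKM of 6 fast fibre markers at 7737 at E18.5 and 58597 in the adult. The summed FPKM of 8 fibroblast markers went from 7163 to 525. Of these, Dcn changed least, from 393.19 to 329.04 FPKM, and made up most of the adult sum. The sum of 4 proliferation markers went from 111 to 0.31, and that of 6 bone and cartilage markers from 117 to 0.87, with Ibsp at 0 from PN14 on. The 4 Schwann cell markers summed to 214 and 853 FPKM in PN14 replicates 1 and 2 at 1 age. The endothelial (59.8 to 238), macrophage (12.2 to 48.5) and satellite cell (23.2 to 113) markers were lowest in the adult library. In whole tissue, fewer cells of a type and less RNA per cell cannot be told apart.

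The coding sequences below show how differently these proteins are built to hold calcium. They were read from the GENCODE M1 transcripts on mm9, 5′ to 3′. The first pair encodes the last 30 residues of each calsequestrin, on chromosome 1 from 174140479 to 174140568 (minus strand) and on chromosome 3 from 101949261 to 101949350 (plus strand), with codons of the acidic residues aspartate and glutamate in capitals.
Casq1: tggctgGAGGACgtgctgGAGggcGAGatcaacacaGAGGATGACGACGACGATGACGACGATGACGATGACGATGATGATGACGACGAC
Casq2: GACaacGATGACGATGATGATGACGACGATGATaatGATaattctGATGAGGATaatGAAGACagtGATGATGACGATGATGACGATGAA
Of these 30 residues, 22 (73.3%) are acidic in Casq1 and 24 (80.0%) in Casq2. The whole proteins have 405 and 415 residues, and 259 of 389 aligned residue pairs (66.6%) are identical.

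Parvalbumin, of 110 residues, binds calcium in 2 EF-hand loops of 12 residues each, whose acidic side chains hold the ion. The first loop is coded on chromosome 15 from 78032956 to 78032991 within a single exon, and the second from 78022123 to 78031689 across an intron, both on the minus strand, with acidic codons again in capitals.
Pvalb loop 1: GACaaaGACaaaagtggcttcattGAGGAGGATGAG
Pvalb loop 2: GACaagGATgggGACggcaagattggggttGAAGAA
Calumenin has 5 such loops in 315 residues by the same pattern search. Hrc is built otherwise, with 11.1% histidine in 738 residues. Its most histidine-rich stretch of 30 residues (residues 189 to 218, 10 of them histidine, codons in capitals) is coded on chromosome 7 from 52591361 to 52591450, plus strand.
Hrc: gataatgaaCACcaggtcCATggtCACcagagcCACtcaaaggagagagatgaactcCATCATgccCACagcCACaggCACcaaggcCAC
Calumenin ends in HDEF, a signal that returns proteins to the endoplasmic reticulum, coded by the capitals in its last 20 codons below (chromosome 6 from 29324441 to 29324500, plus strand). Calreticulin ends in a signal of the same kind.
Calu: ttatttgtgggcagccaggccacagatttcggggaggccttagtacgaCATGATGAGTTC

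Between PN2 and PN14 the buffer genes parted into genes that rose, a gene that fell and genes that did not pass the test. Pvalb, Casq1 and Asph rose from PN2 to PN14, Casq2 fell, and Srl, Hrc, Calr and Calu did not pass. FPKM (fragments scaled to transcript length and to all fragments on genes) can be compared between genes within a library, and all levels below are on that scale. Fold changes are log2 values with their standard errors (SE), from counts scaled between libraries by TMM (edgeR). The word called means that the adjusted p of edgeR's quasi-likelihood test, by Benjamini and Hochberg's method over all genes tested, was under 0.05 and that the log2 fold change reached 1 in either direction. The only replicates are the PN14 pair, so the test takes the spread of those libraries, as the spread at every stage.

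**Figure D1:**
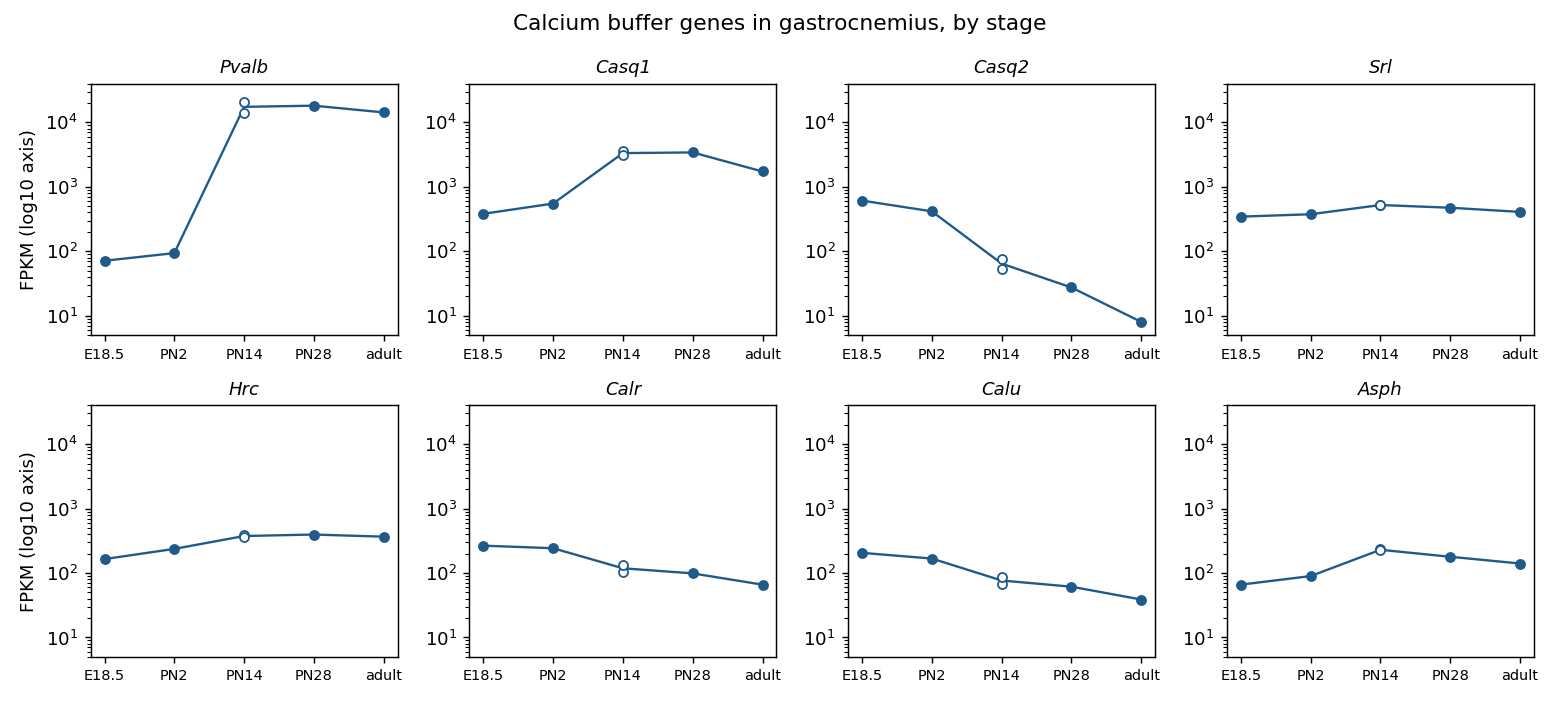
FPKM of the 8 genes (log10 axis, the same in every panel) against stage, with 1 point per library, open points for the 2 PN14 libraries and lines through the stage means. Pvalb goes from 71.26 at E18.5 to 14303.95 FPKM in the adult and Casq2 from 612.13 to 8.01, while Srl stays between 344.81 and 523.0.

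From PN2 to PN14, 4 of the 8 genes were called, against 23.0% of all genes tested. The 3 that rose stand against 11.8% of all genes called as higher at PN14, and the 1 that fell against 11.2% called as lower. The median log2 fold change of the 8 genes was 1.24, against -0.012 for all genes. Without a test, 6 of the 8 genes differed at least 2-fold in TMM-normalized CPM (counts scaled to the library total times its TMM factor) plus 0.1, against 25.6% of all genes. From PN2 to PN28, 5 of the 8 were called against 27.0% of all genes, 4 of them higher (14.3% of all genes) and 1 lower (12.7%). From E18.5 to the adult, 6 of the 8 were called against 44.9% of all genes, 4 higher (21.4%) and 2 lower (23.6%). With library size alone in place of TMM, 3 of the 8 were called as higher and 3 as lower for PN2 against PN14. The split was 2 and 3 for PN2 against PN28, and 3 and 3 for E18.5 against the adult. Among the 16882 genes tested, that scaling called 5825, 7151 and 9047 in the same order, more than the 3884, 4566 and 7584 with TMM. These comparisons share libraries and are not independent of each other.

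The intervals on either side were quieter. None of the 8 genes was called by edgeR's quasi-likelihood test from E18.5 to PN2 (0.0296% of all genes called), from PN14 to PN28 (0.0178%) or from PN28 to the adult (0.521%). At an unadjusted p under 0.05 there were 0, 1 and 1 of them, Casq2 both times. At that limit there were 1121, 1420 and 3091 of the 16882 genes tested. The exact test of edgeR and the Wald test of DESeq2 each called 0 of the 8 in the first of these intervals, 0 in the second and 1 (Casq2) in the last. Among all genes the exact test called 346, 241 and 1146 in the same order, and the Wald test 164, 135 and 817. Without a test, 0 of the 8 differed 2-fold from PN14 to PN28, against 3.48% of all genes, and Casq2 did so when PN14 replicate 1 was left out.

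Pvalb, the cytosolic buffer (chromosome 15 of mm9 from 78021544 to 78036830, minus strand), moved most of the 8 genes. Its FPKM was 71.26 at E18.5, 93.7 at PN2, 20738.93 and 14166.55 in replicates 1 and 2 at PN14, 18187.84 at PN28 and 14303.95 in adult muscle. Both perinatal libraries lay far below all 4 later ones, and the PN28 and adult values lay between the PN14 replicates. From PN2 to PN14 Pvalb rose by 8.23 on the log2 scale (SE 1.62, adjusted p = 0.0167, edgeR's quasi-likelihood test), and from E18.5 to the adult by 8.68 (SE 1.68, adjusted p = 0.00775). The PN14 mean was 17453 ± 4647 FPKM (SD, n = 2), the replicates differing 1.46-fold, the widest ratio among the 8 genes.

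By FPKM, Pvalb ranked 932 among all genes at E18.5 and 705 at PN2, then 3 and 6 at PN14, 7 at PN28 and 9 in adult muscle. It made up 3.37% and 4.31% of the summed FPKM of the 8 genes in the perinatal libraries and between 76.0% and 83.8% later. Among the 8 genes it ranked 7 before PN14 and 1 afterwards. Tnnc2, the fast troponin C that switches on the thin filament when it binds calcium, gives a comparison within each library. The ratio of Pvalb to Tnnc2 FPKM was 0.0137 at E18.5, 0.0138 at PN2, 1.17 and 0.855 at PN14, 0.82 at PN28 and 0.617 in adult muscle. Parvalbumin is also known from neurons. The 5 neuron markers summed to at most 0.48 FPKM in any library, with Gad2 at 0 in 5 of the 6 libraries, and the part of neurons in the Pvalb values was not tested.

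**Figure D2:**
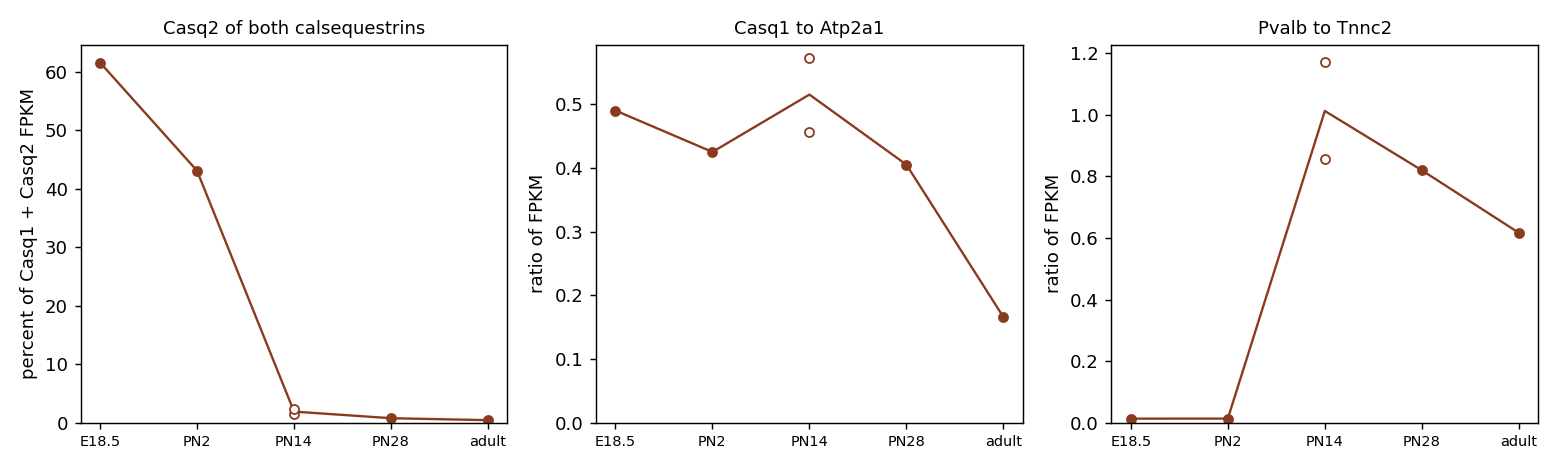
Ratios within each library against stage, with open points for the PN14 libraries and lines through the stage means: Casq2 as a percentage of both calsequestrins (left), Casq1 to Atp2a1 (middle) and Pvalb to Tnnc2 (right), all from FPKM. Casq2 goes from 61.6% to 0.461%, Casq1 to Atp2a1 is lowest in the adult at 0.166, and Pvalb to Tnnc2 jumps between PN2 (0.0138) and PN14.

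The calsequestrins moved in opposite directions. Casq1, the main calsequestrin of fast fibres (chromosome 1 from 174140025 to 174150026, minus strand), had 381.8 FPKM at E18.5, 550.39 at PN2, 3603.67 and 3076.42 at PN14, 3422.21 at PN28 and 1731.08 in adult muscle. All 4 later libraries were above both perinatal ones, and the adult was the lowest of the 4. The change from PN2 to PN14 was 3.28 (SE 0.851, adjusted p = 0.0346, edgeR's quasi-likelihood test). The difference from PN28 to the adult, -0.85 (SE 0.829), did not pass (adjusted p = 0.64).

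Casq2, the form of heart and slow fibres (chromosome 3 from 101890338 to 101950437, plus strand), had 612.13 FPKM at E18.5, 416.5 at PN2, 53.32 and 75.44 at PN14, 27.42 at PN28 and 8.01 in adult muscle. Each later stage lay below every library of the stage before, and the whole range was 76.4-fold. Casq2 fell by 2.05 (SE 0.285, adjusted p = 0.00763, edgeR's quasi-likelihood test) from PN2 to PN14. Over the whole course from E18.5 to the adult Casq2 fell by 5.23 (SE 0.411, adjusted p = 0.00123). The later steps, -0.99 (SE 0.311, adjusted p = 0.548) from PN14 to PN28 and -1.64 (SE 0.352, adjusted p = 0.0974) from PN28 to the adult, did not pass.

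The share of Casq2 in the FPKM of both calsequestrins does not depend on scaling between libraries. It was 61.6% at E18.5, 43.1% at PN2, 1.46% and 2.39% at PN14, 0.795% at PN28 and 0.461% in adult muscle. Casq2 was thus the more abundant of the pair only in the E18.5 library, and the ratio of Casq1 to Casq2 went from 0.624 there to 1.32 at PN2 and 216 in the adult. The summed FPKM of the pair was 994 at E18.5, 967 at PN2, 3657 and 3152 at PN14, 3450 at PN28 and 1739 in adult muscle.

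The summed FPKM of the slow fibre markers was higher at PN14 than at PN2 and lower at PN28 than at PN14. The 6 markers summed to 2733 FPKM at E18.5, 2516 at PN2, 4053 and 3205 at PN14, 1476 at PN28 and 1249 in adult muscle. From PN2 to PN14, when Casq2 fell, Myl2 and Myl3 were called as higher and 0 of the 6 as lower. The median log2 fold change was 1.17 (0.5 with library size alone). All 6 were above 0 with TMM, but with library size alone they ran from Tnni1 at -0.45 to Myl3 at 1.27. The FPKM of Tnni1 went from 524.3 at PN2 to 414.55 and 353.3 at PN14. From PN14 to PN28 all 6 were lower, 0 of them called, with a median of -1.15. The fast fibre markers went from 8894 to between 35623 and 42430 FPKM from PN2 to PN14, 3 of 6 called as higher. All 6 were called as higher with library size alone, by the exact test and by DESeq2's Wald test. Of the 4 heart markers, Myl7 and Nppa were at most 0.33 FPKM in any library, and Myl4, which embryonic skeletal muscle also expresses, made up most of the list's sum before PN14. The fourth, Myh6, had between 13.05 and 51.26 FPKM, made up most of the sum at PN14 and rose from PN2 to PN14 by 1.45 (SE 0.293, adjusted p = 0.018, edgeR's quasi-likelihood test). The part of changing fibre types in the Casq2 values was not tested.

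Casq1 can be set against proteins of the same membrane system within each library. Its ratio to Atp2a1, the fast calcium pump SERCA1, was 0.49 at E18.5, 0.425 at PN2, 0.457 and 0.573 at PN14, 0.405 at PN28 and 0.166 in adult muscle. The first 5 libraries lay between 0.405 and 0.573, and the single adult library lay below all of them. The ratio of Casq1 to Ryr1, the release channel, was 6.84, 6.93, 17.9, 23.0, 13.7 and 4.27 in the same order of libraries. The ratio to Trdn (triadin, the anchor between calsequestrin and the channel) was 11, 7.13, 13.7, 15.1, 11.6 and 4.72. With 1 adult mouse, the lower adult ratios have no replicate check.

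Srl and Hrc, which also bind calcium inside the reticulum, had narrower ranges of FPKM than the other 6 genes. This did not hold in TMM-normalized CPM, where Calr stayed between 175 and 346. On that scale Srl went from 1172 at E18.5 to 3065 in PN14 replicate 1, and Hrc from 270 at E18.5 to 1223 in the adult. Sarcalumenin, which is known to support the calcium pump, had the narrowest range of FPKM among the 8 genes (chromosome 16 from 4480216 to 4541816, minus strand). Its FPKM was 344.81 at E18.5, 375.62 at PN2, 521.95 and 523.0 at PN14, 474.11 at PN28 and 408.53 in adult muscle, a 1.52-fold range. The log2 fold change from PN2 to PN14 was 1.14 (SE 0.574, adjusted p = 0.175, edgeR's quasi-likelihood test) and did not pass. It was called as higher by the exact test of edgeR (adjusted p = 0.00825) and the Wald test of DESeq2 (adjusted p = 0.000415), and with library size alone its change was 0.48. Srl also gives a shorter glycoprotein: complete reading frames of 472 and 910 residues are annotated, and gene totals do not separate them.

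Hrc, which binds triadin as well as calcium (chromosome 7 from 52590660 to 52594343, plus strand), had 164.75 FPKM at E18.5, 236.93 at PN2, 392.61 and 358.57 at PN14, 395.85 at PN28 and 366.58 in adult muscle. The 4 later libraries were close together and all above the perinatal pair. The change from PN2 to PN14 was 1.34 (SE 0.426) and did not pass edgeR's quasi-likelihood test (adjusted p = 0.0601), while DESeq2's Wald test (adjusted p = 6.22e-05), the exact test (adjusted p = 0.00184) and no filter (adjusted p = 0.0422) called it. It passed from PN2 to PN28, at 1.63 (SE 0.473, adjusted p = 0.0453), and from E18.5 to the adult, at 2.18 (SE 0.482, adjusted p = 0.0121). With library size alone the change from PN2 to PN28 was 0.74 (adjusted p = 0.0839) and no longer called, nor was that of a line through stage order (1.23, adjusted p = 0.0554).

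Asph (chromosome 4 from 9375216 to 9596491, minus strand) had 66.05 FPKM at E18.5, 89.69 at PN2, 235.48 and 223.79 at PN14, 178.85 at PN28 and 140.54 in adult muscle. By FPKM the PN14 pair was highest and the perinatal pair lowest. In TMM-normalized CPM the perinatal pair was again lowest, but PN28 (415) lay between PN14 replicates 1 (503) and 2 (407). Asph rose by 1.78 (SE 0.32, adjusted p = 0.0132, edgeR's quasi-likelihood test) from PN2 to PN14 and by 1.65 (SE 0.347, adjusted p = 0.0102) from E18.5 to the adult. With library size alone the changes from PN2 to PN28 (0.76, adjusted p = 0.0745) and from E18.5 to the adult (0.63, adjusted p = 0.132) were not called, while that from PN2 to PN14, 1.12 (adjusted p = 0.00342), remained called.

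The locus encodes a large reticulum enzyme that hydroxylates secreted proteins and, from other promoters and exons, junctin, a small partner of calsequestrin at the release channel. Complete reading frames of Asph range from 197 to 741 residues in the annotation. Transcript values were not analysed here, but CPM on the library total alone, without TMM, divided by FPKM give the average transcript length, in kilobases, that the authors' program assigned to a gene in each library. For Asph this length was 2.46 at E18.5, 2.14 at PN2, 1.8 and 1.83 at PN14, 1.82 at PN28 and 1.79 in adult muscle. For the other 7 genes it varied at most 1.002-fold over the 6 libraries. This measure was chosen after the values had been seen.

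The length of Asph was shorter in every later library than at E18.5. A gene quantified as a single transcript has a fixed length in this measure, and such genes were not set apart. The shares below therefore cannot show whether the change of Asph was unusual. Of 5564 genes with at least 5 FPKM and 100 counts in every library, 5066 (91.0%) kept their length within 1% over the libraries. Among them 7 (0.126%), Asph included, had a ratio of the E18.5 to the adult length of at least the 1.38 of Asph. Because of the shorter length, Asph increased 2.56-fold in FPKM from PN2 to the PN14 mean but 2.17-fold in such CPM. Which transcripts this reflects was not tested.

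**Figure D3:**
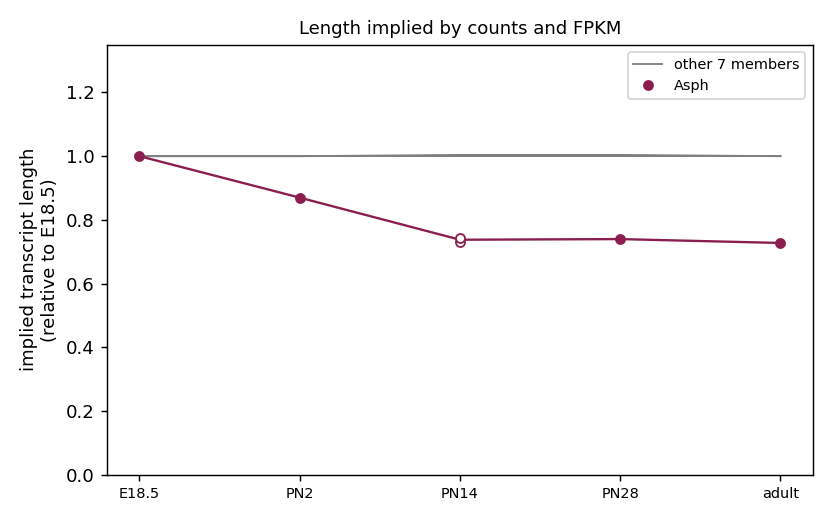
Average transcript length implied by counts and FPKM, relative to E18.5, against stage, with open points for the PN14 libraries of Asph and grey lines for the other 7 genes. Asph goes from 2.46 kilobases at E18.5 to 1.79 in the adult, while the other 7 vary at most 1.002-fold.

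Calr and Calu, the buffers with a retention signal that most cell types carry, had a lower mean FPKM at each stage than at the one before. Calreticulin, a lectin chaperone of glycoprotein folding (chromosome 8 from 87365749 to 87370833, minus strand), had 265.91 FPKM at E18.5, 242.75 at PN2, 103.66 and 133.38 at PN14, 98.78 at PN28 and 66.03 in adult muscle. Calumenin, a reticulum protein of the CREC family (chromosome 6 from 29298069 to 29327110, plus strand), had 205.59, 167.85, 67.56 and 85.58, 61.38 and 38.8 FPKM in the same order. The libraries from PN14 on were below both perinatal ones for both genes. The ratio of Calr to Calu stayed between 1.29 and 1.7, and of all pairs among the 8 genes these 2 had the most similar profiles.

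Whether Calr and Calu fell by PN14 depended on the scaling between libraries. With TMM the changes from PN2 to PN14 were -0.39 (SE 0.253, adjusted p = 0.279) and -0.48 (SE 0.261, adjusted p = 0.2), and neither passed edgeR's quasi-likelihood test. With library size alone they were -1.03 (adjusted p = 0.00331) and -1.13 (adjusted p = 0.00123), both called, but the median of all genes then shifted to -0.662. From E18.5 to the adult Calu fell by 1.38 (SE 0.312, adjusted p = 0.0131) with TMM. Calr was at -0.98 (SE 0.299, adjusted p = 0.0347), just short of the fold limit, and was called under 5 of 6 alternatives. Fibroblast markers, from cells rich in reticulum, went from 5881 FPKM at PN2 to 1799 and 2178 at PN14. Their median log2 fold change also depended on the scaling. It was -0.84 with TMM, 1 of 8 called as lower, and -1.49 with library size alone, 6 called as lower. The part of fibroblasts in the levels of Calr and Calu was not tested.

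**Figure D4:**
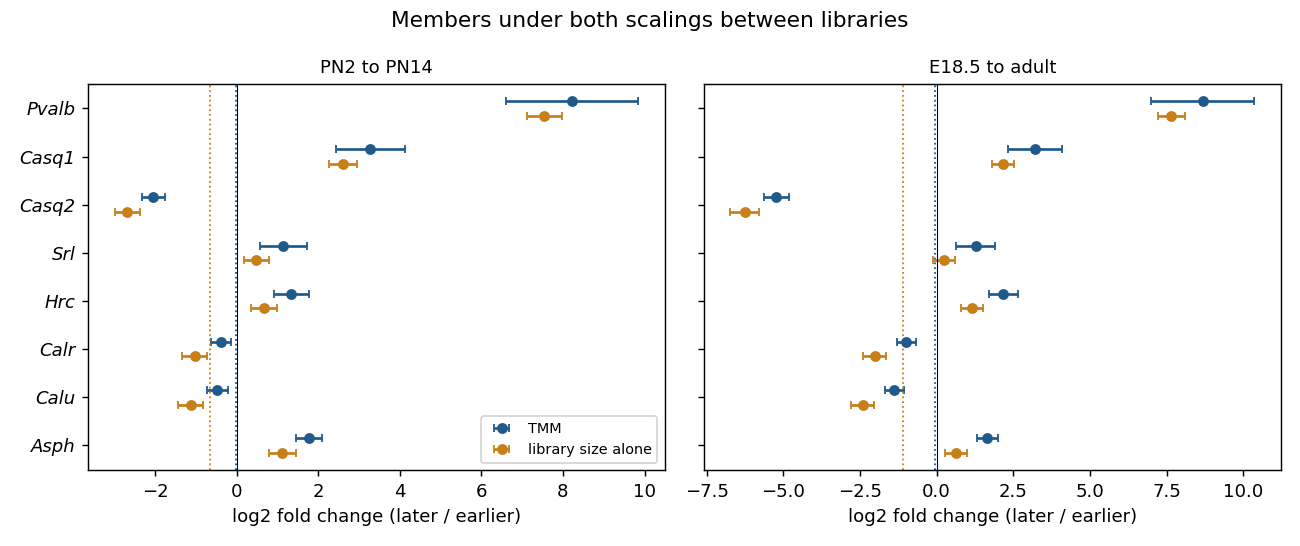
Log2 fold change (horizontal axis, bars are SE) of the 8 genes from PN2 to PN14 (left) and from E18.5 to the adult (right), with TMM (blue) and with library size alone (orange), dotted lines marking the median of all genes under each. Pvalb and Casq1 lie above and Casq2 below 0 under both scalings in both comparisons, while Calr and Calu pass the fold limit by PN14 only with library size alone.

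A fit of a straight line through the order of the 5 stages, which uses the spread of all 6 libraries, called 3 of the 8 genes, against 41.0% of all genes. That share is close to the background. Casq2 and Calu were called as lower (22.5% of all genes), with fitted changes from first to last stage of -5.46 (SE 0.465, adjusted p = 0.00415, edgeR's quasi-likelihood test) and -1.33 (SE 0.252, adjusted p = 0.00792). Hrc was called as higher (18.5%), at 2.43 (SE 0.609, adjusted p = 0.0185). Pvalb and Casq1, which stepped up once and then stayed level or dropped, did not pass (10.78, SE 5.61, adjusted p = 0.153 and 4.32, SE 1.97, adjusted p = 0.111). Casq2 was called without any single library in turn, but the count of the 8 was 1 without the E18.5 library, where only Casq2 remained, and 6 without the adult library. The counts of all genes with a library left out are not reported here.

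The other genes of calcium handling were followed by lists. From PN2 to PN14, 11.8% of all genes tested were called as higher and 11.2% as lower. With library size alone 5825 of all 16882 genes were called, and the median of all genes was -0.662. Of 13 genes of calcium release and uptake by the reticulum, 6 rose and 2 fell from PN2 to PN14, with a median of 1.59 (0.93 with library size alone, where Jph1 and Cacna1s lost their call as higher and Atp2a1 and Ryr1 gained one). Pln (phospholamban, a pump inhibitor) rose by 2.88 (SE 0.372) but from 0.26 to only 1.25 and 1.18 FPKM. Atp2a1 was at 3.04 (SE 1.62) and did not pass (adjusted p = 0.194 in edgeR's quasi-likelihood test; 2.36 and called with library size alone), with 1294.3 FPKM at PN2 and 7878.17 and 5371.44 at PN14. Sln (sarcolipin, another pump inhibitor) fell by 3.53 (SE 0.518), from 896.41 to 24.58 and 77.62 FPKM. Ryr3, the minor release channel of young muscle, fell by 3.31 (SE 0.855).

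Of 10 calcium-binding chaperones of the reticulum, 0 were called from PN2 to PN14 by edgeR's quasi-likelihood test, 3 had an unadjusted p under 0.05, and the median was -0.52. DESeq2's Wald test and the exact test called 0 as well. With library size alone 7 were called as lower, and the median of the list was -1.16 against -0.662 for all genes. The list ran from Dnajb11 at 0.37 and Hspa5 at -0.24 to Pdia4 at -0.76 and Pdia3 at -0.8. From E18.5 to the adult 6 of the 10 were called as lower, against 23.6% of all genes, and the median was -1.09. The ratio of Calr to Canx (calnexin, its membrane-bound relative) stayed between 3.68 and 4.43 in all 6 libraries. Of 6 CREC family and EF-hand proteins of reticulum and Golgi found in the table, 1 fell and 0 rose from PN2 to PN14, with a median of -0.63 (5 fell with library size alone). That gene was Rcn1 (reticulocalbin, -1.33, SE 0.225), while Sdf4 was at 0.09, Nucb1 at -0.35 and Rcn3 at -1 (adjusted p = 0.0171), just under the fold limit and not called. Both Sdf4 and Dnajb11 were below 0 with library size alone (-0.56 and -0.29).

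Of 21 cytosolic EF-hand proteins, 2 rose and 3 fell from PN2 to PN14, with a median of 0.41 that turned to -0.2 with library size alone. S100a1, a calcium sensor of striated muscle that acts on the ryanodine receptor, rose by 3.01 (SE 0.462), from 20.17 to 125.42 and 75.28 FPKM. Tnnc2 was at 2.01 (SE 1.12) and did not pass, though it did with library size alone (1.34). Ocm (oncomodulin, the other parvalbumin of mouse) ran the other way from Pvalb, with 124 and 26 counts in the E18.5 and PN2 libraries and 0 in all later ones. Against a floor of 3 counts per library it was at least 4.02-fold lower at PN14, and the list's median with Ocm at that bound was again 0.41. Calml3 fell by 3.5 (SE 0.485) from under 1 FPKM.

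Myosin heavy chains mark the maturation of fibres. Of 6 of them, 2 rose and 2 fell from PN2 to PN14, with a median of 2.2. With library size alone 3 rose and 2 fell. The exact test and DESeq2's Wald test each called 4 as higher and 2 as lower, against 4663 and 3323 of all genes called. Myh1, a fast adult form, rose by 5.77 (SE 0.967). Myh4, the fastest, was at 7.09 (SE 2.58) and did not pass (adjusted p = 0.0832 in edgeR's quasi-likelihood test). With library size alone Myh4 was at 6.42 and was called. The neonatal Myh8 fell by 7.1 (SE 1) and the embryonic Myh3 by 4.16 (SE 0.556).

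The genes most like each of the 8 were taken by the root mean square difference of centred log2 normalized counts over the 6 libraries, among 8825 genes with a mean of at least 10 TMM-normalized CPM. For Pvalb they were Tuba8 (0.395), Gm4841 (0.396) and Myh4 (0.464), and for Casq1 they included Cited4 (0.165) and P2ry2 (0.262). The genes nearest to Casq2 were Ccdc8 (0.174), Skp2 (0.204) and Armcx2 (0.208). This difference grows with the size of a gene's changes, and Pvalb had the widest range of the 8, at 291-fold in FPKM. Its lack of a neighbour nearer than 0.395 is therefore no measure of how distinct its pattern was. Other genes of the 8 had nearer ones. They were Mrpl2, Mrpl4 and Bag3 for Srl (0.0438 to 0.0541) and included Sema4d and Higd2a for Hrc (0.0906 and 0.091). For Asph they were Tnfrsf21, Letm1 and Ndufs1 (0.0352 to 0.0597). Acap2, Sec11a and Btd were nearest to Calr (0.0207 to 0.0445) and Bag2, BC017643 and Ostc to Calu (0.0478 to 0.0576). Sec11a and Ostc act in the reticulum on newly made secretory proteins.

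Summed over the 8 genes, the FPKM was 2112 at E18.5, 2173 at PN2, 25717 and 18643 at PN14, 22846 at PN28 and 17064 in adult muscle. Without Pvalb the sum was 2041, 2080, 4978, 4476, 4659 and 2760 in the same order. The order of the 8 genes by FPKM was led by Casq2 at E18.5 and by Casq1 at PN2, and from PN14 on was the same in all 4 libraries: Pvalb, Casq1, Srl, Hrc, Asph, Calr, Calu and Casq2. In PN14 replicates 1 and 2, the values of neighbours in this order did not overlap, except those of Calu (67.56 and 85.58) and Casq2 (53.32 and 75.44).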

How the data were processed

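The authors aligned reads to mm9 with TopHat2 2.0.5 and deposited, for every library, the expected count and the FPKM of each RefSeq gene as estimated by RSEM (version not given in the sources used here). The FPKM are scaled to gene length and library total alone. Strand was not given, and transcript values were not used here.

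Expected counts were rounded and fitted in R 4.3.3 with edgeR 4.0.16 (TMM, filterByExpr by stage, quasi-likelihood test, 5 stages as groups, 1 residual degree of freedom, biological coefficient of variation 0.188), with Benjamini-Hochberg adjustment over 16882 genes. The line through stage order had 4 residual degrees of freedom. The fits were also run on simulated data with the same spread for all genes and as many genes raised as lowered. That check does not bear on the choice of scaling between libraries. SE is the fold change divided by the square root of F. Alternatives were library size alone, DESeq2 1.42.0 size factors or Wald test, edgeR's exact test, other filters, a pseudocount of 1 and libraries left out. The named genes were all 8 members, the 3 nearest profiles of each, and the extremes of each list from PN2 to PN14. A few items that this rule names are not reported here. Symbols turned into dates were left out of the profiles. Sequences came from GENCODE M1, read with Python 3.11.15. The members and lists were chosen with earlier results of these data known.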

Additional observations from a re-analysis of the deposited data

How the results depend on the processing

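Pvalb, Casq1, Casq2 and Asph kept their direction and their call from PN2 to PN14 under all 6 alternatives of scaling, filter and test. Library size alone shifted the median of all genes by PN14 to -0.662 and by PN28 to -0.922, both from PN2, and reversed 2 differences that were not called, Srl from PN14 to PN28 (-0.14) and Hrc from PN28 to the adult (-0.11). It also called 1 of the 8 genes (Casq2) from PN14 to PN28 and 1 (Casq2) from PN28 to the adult, against 262 and 868 of all genes. Without a test it counted 1 from PN14 to PN28. The exact test, the Wald test of DESeq2 and no filter each called 1 from PN28 to the adult, again Casq2, against 1146, 817 and 835 of all genes. The line through stage order called 7 with DESeq2's Wald test, and between 1 and 6 with a library left out. The counts of all genes for these fits of the line are not reported here, so 7, 1 and 6 cannot be set against a background. Leaving out a PN14 replicate gave 0 to 1 genes at 2-fold from PN14 to PN28. By expected counts, not per length, the Casq2 share was 68.4% and 50.6% in the perinatal libraries (E18.5, PN2), 1.07% at PN28 and 0.622% in adult muscle. The causes of these differences were not tested.

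No paired analysis was possible because only PN14 has more than 1 library. The stage fit could not be repeated without a PN14 replicate, since no residual degrees of freedom would remain. The precision was limited by the number of libraries more than by their depth.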
